A study of Mus musculus with 13 samples.

Results

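The genes described here are 10 transcriptional regulators of mitochondrial biogenesis, out of 17924 genes in the deposited tables. They were taken by symbol, each matched to 1 Ensembl mouse gene identifier, and all 10 were among the 17069 genes tested, those that reached a normalized count of 10 in 3 libraries or more. The libraries were made from whole extensor digitorum longus (EDL, n = 5), psoas (n = 5) and soleus (n = 3) muscles of *mdm* mice. These mice come from a colony of the strain B6C3Fe a/a-Ttn*mdm*/J and are homozygous for the *mdm* allele of titin (Ttn), a small deletion with a LINE-1 insertion in the N2A-PEVK region, so all 3 groups carry the same mutation and no untreated or wild-type group entered any comparison. EDL came from mice of 38 to 42 days, psoas from mice of 29 to 42 days and soleus from mice of 33 to 38 days. The muscles had been taken from animals also used for other work, and a whole muscle holds fibres together with fat, nerve, vessels and connective tissue. Wild-type muscles of the study were not analysed here.

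Mitochondrial biogenesis in skeletal muscle is coordinated by coactivators of the PGC-1 family, which bind no DNA themselves and act through nuclear receptors and other DNA-binding factors. *Ppargc1a* encodes PGC-1α, the form induced by exercise, cold and energy shortage, *Ppargc1b* encodes the related PGC-1β, and *Perm1* encodes a muscle regulator induced by PGC-1 and the estrogen-related receptors. The receptors *Esrra*, *Esrrb* and *Esrrg* (ERRα, β and γ) drive genes of respiration and the citric acid cycle, while *Ppara* and *Ppard* drive genes of fatty acid oxidation. *Nrf1* encodes a DNA-binding activator of nuclear genes for respiratory chain subunits, and *Tfam* encodes the protein that packages mitochondrial DNA and starts its transcription.

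Total counts per library ran from 12059090 to 48835209 in EDL, from 16315975 to 30009501 in psoas and from 9114176 to 39484945 in soleus. The labelled muscles differed in fibre markers, and the summed normalized count of 4 slow fibre genes was 187880 to 266700 in soleus against at most 38284 in any EDL or psoas library. The sum of 4 fast 2B fibre genes was 251990 to 1068200 in EDL, 25910 to 90490 in psoas and 15799 to 35438 in soleus. Psoas and soleus thus held far less RNA of fast 2B fibre genes than EDL. Psoas replicate 5 stood apart in the brown adipocyte gene *Ucp1*, at a normalized count of 4911 against at most 79.5 in the other 12 libraries. In bulk RNA, fewer cells of a type and less RNA per cell cannot be told apart. The labels also carry a code, of which 5 values (T1, T3, T4, T5 and T6) occur and whose meaning is not stated. A sex is labelled only for the libraries with code T4, all male, and with code T5, all female, so sex and code cannot be told apart. The study's libraries were sequenced in several runs, and the labels do not say which library belonged to which run. By the RNA integrity numbers that the study reports, no psoas library was above the lowest EDL library. The part of RNA quality in the differences between muscles was not tested.

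The genes lie on 10 different chromosomes of GRCm38 and are all protein coding in GENCODE. *Ppargc1a* spans chr5:51454250-51567726 on the reverse strand, *Perm1* chr4:156215868-156221307 on the forward strand and *Tfam* chr10:71225464-71238280 on the reverse strand. *Esrrg* spans chr1:187608791-188214885, *Esrrb* chr12:86361117-86521628 and *Esrra* chr19:6910977-6921813. *Ppara* lies at chr15:85734983-85802819, *Ppard* at chr17:28232700-28301474 and *Nrf1* at chr6:30047988-30153458. *Esrra* overlaps *Trmt112* on the opposite strand, which had a mean normalized count of 160. The strand setting of the counting is not given in the sources used here, so reads in that overlap cannot be assigned to *Esrra* with certainty.

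The promoters of *Ppargc1a* and *Perm1* are shown because these are the inducible coactivator and the one regulator that passed the test between muscles, and both are known targets of signals that act through short DNA motifs. RefSeq promoter windows (250 bases before to 50 bases after the start, GRCm38.p6) were found for 9 of the 10 genes, 14 windows in all. The parts printed here lie before the first annotated base of each gene. Capitals mark, on either strand, the letters AAGGTCA of a short ERR site in *Perm1* and the letters TGACG of a short cyclic AMP response element in *Ppargc1a*, and in both promoters the match is in the reverse orientation.
Perm1 (chr4:156215677-156215867, forward strand): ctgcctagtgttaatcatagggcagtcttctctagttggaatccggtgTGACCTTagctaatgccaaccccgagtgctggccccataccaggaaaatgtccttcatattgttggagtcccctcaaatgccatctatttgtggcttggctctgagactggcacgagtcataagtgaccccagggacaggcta
Ppargc1a (chr5:51567727-51567975, reverse strand): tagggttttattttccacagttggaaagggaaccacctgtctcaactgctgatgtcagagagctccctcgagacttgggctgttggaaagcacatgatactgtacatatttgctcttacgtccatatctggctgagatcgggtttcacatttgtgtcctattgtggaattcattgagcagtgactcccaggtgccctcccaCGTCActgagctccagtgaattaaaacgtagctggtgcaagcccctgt

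The *Perm1* match starts 202 bases before the RefSeq start, and AAGGTCA was found on either strand in 4.72% of 32851 promoters. The full ERR site TCAAGGTCA, which contains that short site, was found in none of the 14 windows and in 0.423% of all promoters. The *Ppargc1a* match lies 49 bases before the start, and TGACG was found in 20.8% of all promoters, among them also those of *Esrrb*, *Ppara* and *Ppard*. The full element TGACGTCA, which contains that short site, was in none of the 14 windows and in 1.79% of all promoters. Both short sites were searched after the full sites had been. The *Tfam* window held the GABP (nuclear respiratory factor 2) site CCGGAAGT, found in 3.89% of all promoters, and the *Ppara* window held the NRF1 core CGCATGCG, found in 1.87%. These matches describe the letters of the windows and are not measured binding sites. The stretches printed below for *Tfam* and *Ppara* lie inside the annotated genes, before the RefSeq start used for each window.
Tfam (chr10:71238073-71238102, reverse strand): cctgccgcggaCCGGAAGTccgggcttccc
Ppara (chr15:85735735-85735764, forward strand): gggctcggtggCGCATGCGcgcggactagg

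Levels were compared between the genes per length, as FPKM (fragments per kilobase of exon, scaled to library size) computed from the normalized counts and exon lengths. *Tfam* had the highest median FPKM over the 13 libraries, 7.36, followed by *Perm1* at 6.51, *Esrra* at 4.33, *Ppargc1a* at 2.43, *Esrrg* at 1.84 and *Nrf1* at 1.21. PGC-1β, ERRβ and the regulators of fatty acid oxidation were lower, with a median FPKM of 0.622 for *Ppara*, 0.409 for *Ppargc1b*, 0.193 for *Ppard* and 0.0302 for *Esrrb*. Within EDL the library ranges of neighbours in this order overlapped, except between *Nrf1* and *Ppara* and between *Ppard* and *Esrrb*. *Perm1* was first in EDL, with a mean of 11.1 FPKM ± 5.16 (SD, n = 5), and below *Tfam*, *Esrra* and *Ppargc1a* in psoas, at 2.46 ± 1.55 (SD, n = 5). In soleus *Tfam* and *Perm1* stood at 7.63 ± 1.16 and 6.66 ± 0.131 (SD, n = 3), with overlapping ranges. The muscle with the lowest mean level of *Perm1* was psoas.

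**Figure D1:**
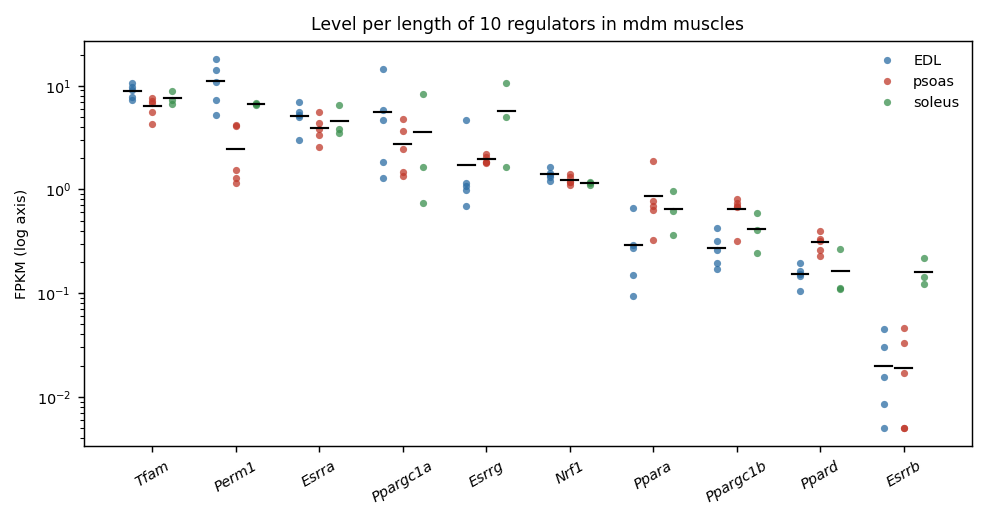
Level per length (FPKM, log axis) of each gene in each library, in order of the median over 13 libraries, with points for libraries, colours for muscles and bars for the mean of each muscle. The 3 libraries with an *Esrrb* count of 0 are drawn at 0.005. *Tfam* and *Perm1* lead with medians of 7.36 and 6.51, and *Esrrb* is last at 0.0302.

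The genes differed in how steady they were between libraries. The ratio of the highest to the lowest library was 1.51 for *Nrf1*, 2.47 for *Tfam* and 2.73 for *Esrra*, and these regulators had coefficients of variation of 4.05% to 36.4% within muscles. It was 20.0 for *Ppara*, 19.3 for *Ppargc1a*, 15.8 for *Perm1* and 15.3 for *Esrrg*. *Ppargc1a* varied by 93.9% of its mean within EDL and by 116% within soleus. Its SD within EDL, 727 normalized counts, exceeded every difference between its muscle means (775, 380 and 496 in EDL, psoas and soleus).

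The first question was which regulators differ between psoas and EDL, the pair of fast muscles. *Perm1* was lower in psoas and was the one gene of the 10 that passed the study's thresholds (adjusted p under 0.01 and over 2-fold). *Ppargc1b* and *Ppard* were higher in psoas under the weaker rule (adjusted p under 0.05 with no fold limit) and not under the first. The other 7 passed neither rule with edgeR, while DESeq2 placed *Ppara* (adjusted p 0.0243) and *Tfam* (0.0405) under the weaker rule as well. Among all 17069 genes 4.93% passed the first rule and 18.1% the weaker rule, so 1 and 3 of 10 are to be read against those shares (with DESeq2, 1 and 5 of 10 against 9.35% and 23.9%).

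**Figure D2:**
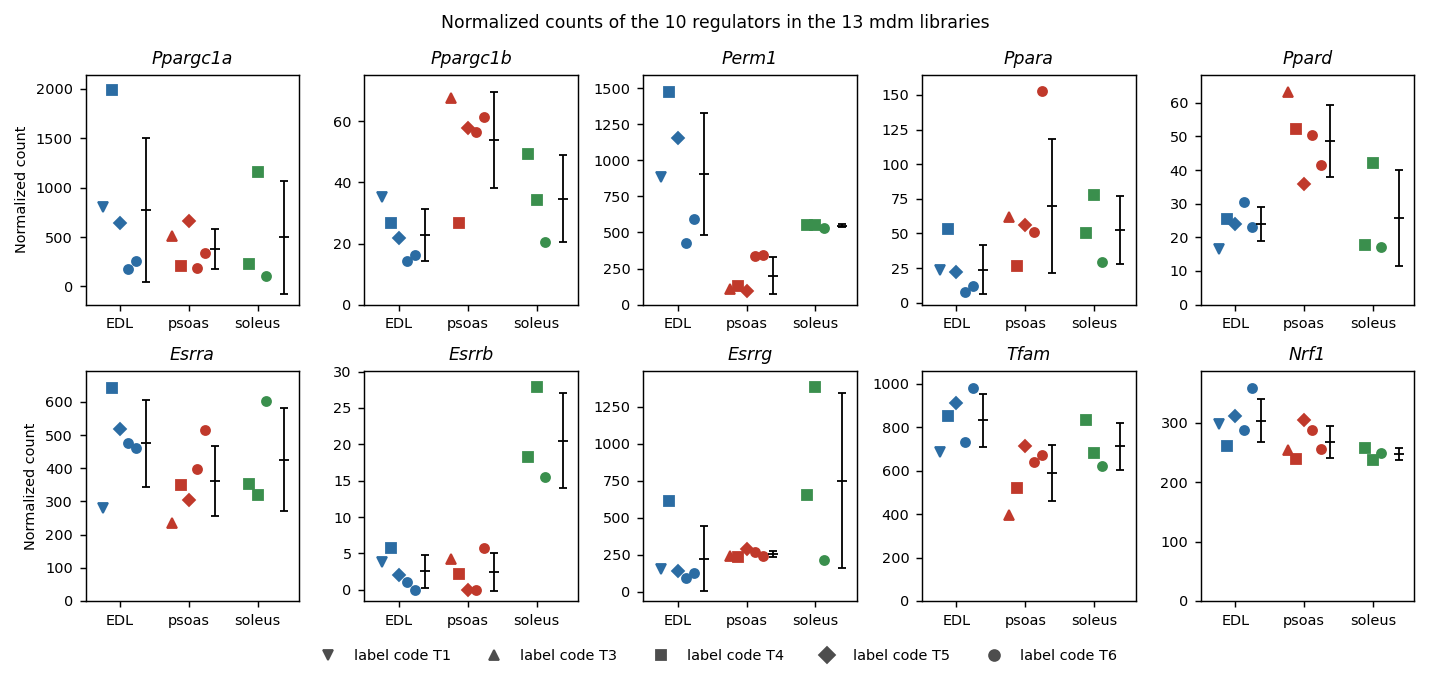
Normalized count of each gene in each of the 13 *mdm* libraries, 1 panel per gene, with colours for muscles, marker shapes for the label code and bars for the mean ± SD of each muscle. *Perm1* lies at 426 to 1477 in EDL and at 93.4 to 344 in psoas, and the *Ppargc1a* counts of the 5 libraries with code T6 lie between 103 and 337.

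*Perm1* had normalized counts of 887, 1477, 1153, 426 and 595 in EDL replicates 1 to 5 and of 107, 127, 93.4, 335 and 344 in psoas replicates 1 to 5. No psoas library reached the lowest EDL library, as was the case for 12.8% of all genes in 1 direction or the other. The log2 fold change was -2.19 (SE 0.420, 95% interval -3.12 to -1.25), a 4.55-fold lower level, with an adjusted p of 0.00453 (edgeR quasi-likelihood test). In soleus the counts were 553, 549 and 533, between the other muscles and close together.

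The call of *Perm1* depended on the model. With the replicate number as a block, which pairs EDL with psoas libraries, the log2 fold change was -2.29 and the adjusted p 0.0145 (edgeR), above the threshold of 0.01. Over 21 alternatives the adjusted p ran from 4.2e-06 to 0.0944 while the log2 fold change stayed between -2.47 and -1.67. With only the libraries of 38-day-old mice they were -1.67 and 0.0944. The call was also lost without EDL replicate 3 (-2.08, adjusted p 0.0135), without psoas replicate 1 (-2.02, adjusted p 0.0113) and without psoas replicate 2 (-2.06, adjusted p 0.0140). Within label codes the difference in log2 CPM (counts scaled to library size) was -3.56 for T4 and -3.61 for T5, with 1 library of each muscle, and -0.56 for T6, with 2 of each. The 2 psoas libraries with code T6, replicates 4 and 5, were those with the most *Perm1*, and the 2 EDL libraries with that code were those with the least.

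Several fibre genes were lower in psoas as well. The summed normalized count of 8 muscle fibre markers was 1750300 to 3467600 in EDL and 903450 to 1726200 in psoas, and 3 of the 8 were called lower in psoas, among them creatine kinase *Ckm* (log2 fold change -1.67) and *Tnnt3* (-1.70). Of the 8, *Des* (0.56) and *Ttn* (0.19) had positive values, neither of which passed the test. *Perm1* was therefore also expressed per count of 4 fibre genes in the same library. Per 1000 *Ckm* counts it was 3.64 to 10.5 in EDL and 2.05 to 5.83 in psoas, so that the muscles overlapped, and the mean log2 ratio differed by -0.55 (exact permutation test, two-sided, p = 0.214, n = 5 and 5).

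Per count of desmin (*Des*) and titin (*Ttn*) the muscles did not overlap, and the log2 ratios differed by -2.93 and -2.53 (exact permutation test, two-sided, p = 0.00794 each, the smallest that 5 against 5 can give, 0.0159 adjusted over the 4 ratios). Per count of skeletal actin (*Acta1*) the difference was -1.27, with a p of 0.0476 in the exact permutation test and 0.0635 after adjustment. *Perm1* was taken into these ratios after its counts had been seen to be apart between EDL and psoas. Dividing by *Des* or *Ttn*, the markers with positive values in psoas, could hardly close that gap. The results for these 2 ratios are therefore no separate evidence of a lower *Perm1*. Relative to *Ckm* and *Acta1* the differences were negative as well. Neither passed at an adjusted p under 0.05, which does not show that the muscles are equal in these ratios. When the 5 same-numbered EDL and psoas libraries were kept as pairs, the smallest two-sided p that an exact permutation test can give was 0.0625, so no ratio could pass. That value was reached for *Des* and *Ttn*, with 5 of 5 pairs lower in psoas, and the p was 0.1875 for *Acta1* (4 of 5) and 0.3125 for *Ckm* (3 of 5) in the same exact test. *Ttn* carries the *mdm* mutation in these mice. The ratios were added after the fold changes had been seen, and the part of fibre content in the *Perm1* result was not tested beyond them.

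**Figure D3:**
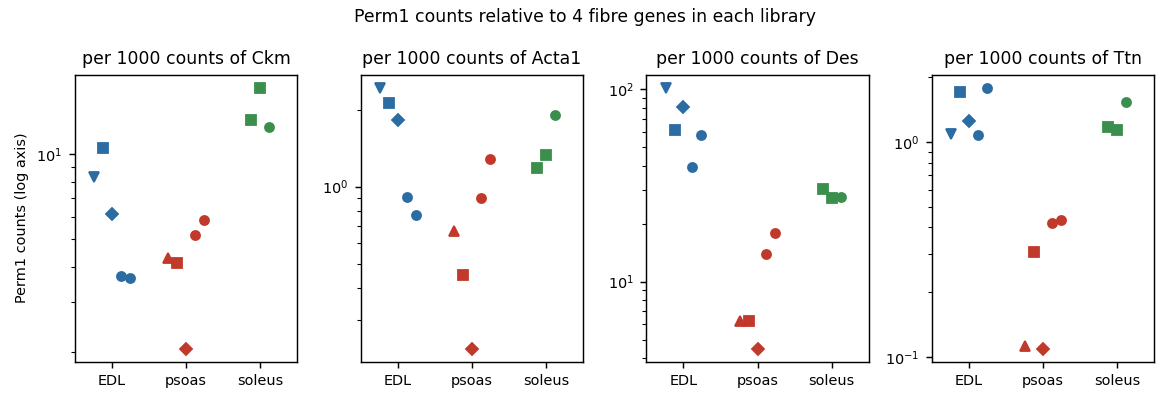
*Perm1* counts per 1000 counts of *Ckm*, *Acta1*, *Des* and *Ttn* in each library (log axes), with colours for muscles and marker shapes for label codes as in the plot of normalized counts by library. EDL and psoas overlap in the *Ckm* panel (3.64 to 10.5 against 2.05 to 5.83) and are apart in the *Des* and *Ttn* panels.

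*Ppargc1b* had normalized counts of 35.3, 26.8, 21.9, 14.2 and 16.2 in EDL and of 67.5, 26.7, 57.7, 56.5 and 61.3 in psoas, in the order of the replicates. Psoas replicate 2 alone fell inside the EDL range. The log2 fold change was 1.21 (SE 0.351, adjusted p 0.0290 with edgeR). *Ppard*, the PPAR form found in most tissues, had 16.6, 25.5, 23.9, 30.5 and 23.0 in EDL and 63.4, 52.3, 35.7, 50.4 and 41.4 in psoas, and every psoas library was above every EDL library. Its log2 fold change was 1.03 (SE 0.317, adjusted p 0.0364 with edgeR). Over the 21 alternatives the adjusted p ran from 0.0103 to 0.219 for *Ppargc1b* and from 0.0134 to 0.127 for *Ppard*, so neither passed the first rule under any of them. Within the codes T4, T5 and T6 the difference in log2 CPM was -0.04, 1.33 and 1.87 for *Ppargc1b* and 0.97, 0.54 and 0.76 for *Ppard*, so that *Ppargc1b* showed no difference between the 2 libraries of code T4.

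*Ppara*, the PPAR form of liver, heart and brown fat, had 23.4, 53.0, 21.9, 7.62 and 12.2 in EDL and 62.0, 26.2, 55.9, 51.2 and 153 in psoas. Its log2 fold change was 1.504 (SE 0.534), with an adjusted p of 0.0642 (edgeR), and within the codes T4, T5 and T6 the difference in log2 CPM was -1.01, 1.29 and 3.03. The highest library, psoas replicate 5, was the one with the *Ucp1* count of 4911. Without it the log2 fold change of *Ppara* was 1.002, with an adjusted p of 0.181 (edgeR). *Cidea*, a second brown adipocyte marker, was called higher in psoas (log2 fold change 2.504), at 113 to 962 against 64.4 to 89.3 in EDL. The part of brown fat in the *Ppara* level was not tested.

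*Ppargc1a* gave no call in spite of the lower psoas mean. Its normalized counts were 809, 1987, 647, 176 and 254 in EDL and 509, 202, 667, 188 and 337 in psoas, and the ranges of the muscles lay across each other. The log2 fold change was -1.04 with a 95% interval of -2.57 to 0.49 and an adjusted p of 0.309 (edgeR), so a difference in either direction is within the interval.

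The receptors ERRα and ERRγ and the factors that act on mitochondrial DNA or respiratory genes had smaller estimates. *Esrra* differed by -0.40 (95% interval -0.99 to 0.18), *Esrrg* by 0.16 (-0.98 to 1.29), *Tfam* by -0.50 (-0.92 to -0.09) and *Nrf1* by -0.18 (-0.49 to 0.14) on the log2 scale. The *Tfam* interval lies below 0, at an unadjusted p of 0.0171 and an adjusted p of 0.0750 (edgeR). *Esrrb* had normalized counts of at most 5.80 in any EDL or psoas library. Psoas held markers of other tissues in larger amounts than EDL: 3 of 3 mesothelial genes were called higher, with a sum of 169 to 836 against 25.7 to 95.4, and 1 of 3 Schwann cell genes (*Mbp*), with a sum of 1549 to 10999 against 419 to 1121. The part of these cells in the differences of *Ppargc1b* and *Ppard* was not tested.

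**Figure D4:**
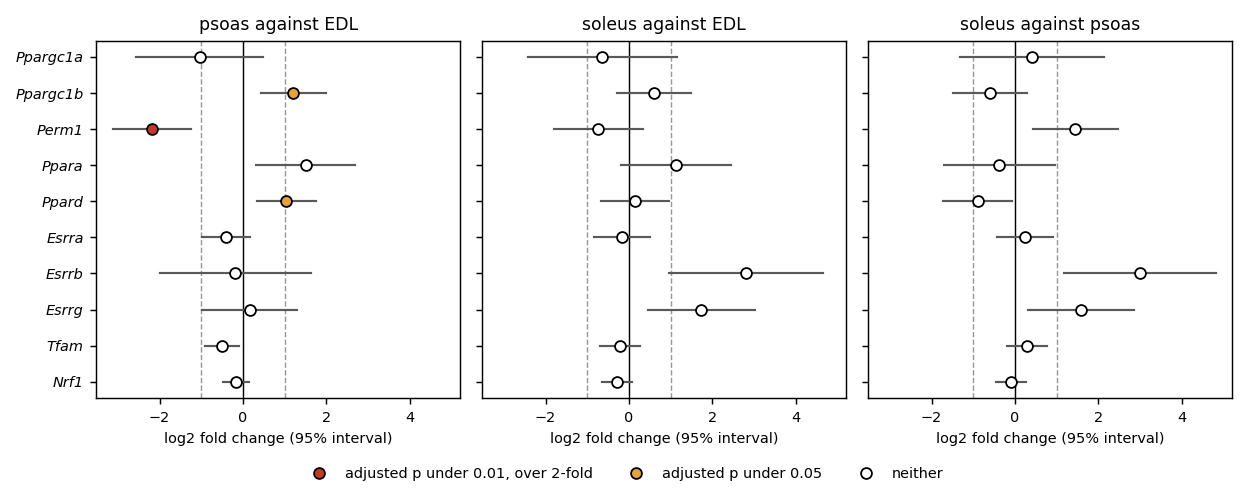
Log2 fold change of each gene with its 95% interval (horizontal axis) in the 3 comparisons between muscles. Filled red marks the first rule, orange the weaker rule and white neither, and dashed lines mark a 2-fold difference. *Perm1* in psoas against EDL is the only red point, at -2.19.

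The second question was how the slow soleus differs from EDL. With edgeR none of the 10 genes passed either rule, while 0.978% of all genes passed the first and 3.43% the weaker rule. At an unadjusted p under 0.05 the count was 2 of 10, *Esrrb* and *Esrrg*, against 15.1% of all genes. DESeq2 called 0 of the 10 by the first rule, against 3.73% of all genes, and the same 2 by the weaker rule (adjusted p 0.0379 and 0.0452), against 6.58%. *Esrrb* had passed the filter through the soleus libraries alone, so of the 2 only *Esrrg* can be read against these shares. *Esrrg*, the receptor of oxidative fibres, had normalized counts of 655, 1380 and 215 in soleus and of 150, 611, 139, 90.4 and 128 in EDL. All EDL libraries but replicate 2 lay below the soleus range. The log2 fold change was 1.74 (SE 0.574, 95% interval 0.46 to 3.01) with an adjusted p of 0.130 (edgeR).

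Leaving out EDL replicate 2 raised the *Esrrg* fold change to 2.58 on the log2 scale with an adjusted p of 0.00901 (edgeR), which passes the first rule, and over all single libraries left out the log2 fold change ran from 0.95 to 2.58. Within code T4 *Esrrg* was higher in soleus by 0.62 in log2 CPM (2 soleus libraries against EDL replicate 2 alone) and within code T6 by 1.0003 (1 against 2). EDL replicate 2 also had the highest *Ppargc1a* count of the 13 libraries, 1987, and soleus replicate 2, which had the highest *Esrrg*, had the second highest *Ppargc1a*, 1158. Both carry the label code T4, as do psoas replicate 2 and soleus replicate 1, whose *Ppargc1a* counts were 202 and 227.

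*Esrrb* had raw counts of 44, 39 and 9 in soleus, of 9, 9, 1, 1 and 0 in EDL and of 9, 4, 0, 0 and 7 in psoas. Its normalized counts were 15.5 to 27.9 in soleus and at most 5.80 elsewhere. The filter was passed through the soleus libraries alone, so a gene with this pattern had to differ to be tested, and its fold changes of 2.81 (SE 0.828, adjusted p 0.0842) against EDL and 2.995 (SE 0.817, adjusted p 0.138) against psoas (edgeR) are given as a description.

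*Nrf1* did not overlap between soleus (237 to 257) and EDL (260 to 358), as was the case for 11% of all genes, and its log2 fold change was -0.28 (95% interval -0.65 to 0.08) with an adjusted p of 0.457 (edgeR). *Ppargc1a* had 227, 1158 and 103 in soleus, and its interval against EDL ran from -2.42 to 1.14. The intervals of *Esrra* (-0.84 to 0.51) and *Tfam* (-0.70 to 0.26) both include 0 and stay within 2-fold, while those of *Ppara* (-0.20 to 2.45) and *Perm1* (-1.80 to 0.32) reach beyond it.

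The third comparison, soleus with psoas, gave 0 of 10 calls by either rule with edgeR, beside 0.0762% and 0.633% of all genes. At an unadjusted p under 0.05 the count was 4 of 10, *Perm1*, *Ppard*, *Esrrb* and *Esrrg*, against 12.7% of all genes. DESeq2 called 0 by the first rule, against 1.01% of all genes, and *Esrrb* by the weaker rule (adjusted p 0.0414), against 2.59%. As *Esrrb* had passed the filter through the soleus libraries alone, it is not to be read against these shares. *Perm1* had 533 to 553 in soleus and at most 344 in psoas, with a log2 fold change of 1.45 (SE 0.456, adjusted p 0.202 with edgeR). *Perm1* did not overlap between these muscles, as was the case for 10.2% of all genes. Nor did *Esrrb*, for which the filter had fixed this. *Esrrg* differed by 1.58 (SE 0.573, adjusted p 0.268 with edgeR). In log2 CPM it differed by 2.03 within code T4 (2 soleus libraries against 1 of psoas) and by -0.23 within T6 (1 against 2). Soleus replicate 3 (215) lay below all psoas libraries (233 to 287). *Ppard* differed by -0.90 (SE 0.370, adjusted p 0.336 with edgeR).

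*Ppargc1a* and *Esrrg* were also set against the label code. The 5 libraries with code T6, 2 of EDL, 2 of psoas and 1 of soleus, had *Ppargc1a* counts of 103 to 337, and the 8 others had 202 to 1987, so the ranges overlapped. Against code T4, with the muscle in the fit, T6 was lower by a log2 fold change of -2.22 (SE 0.674, adjusted p 0.0678) for *Ppargc1a* and of -1.72 (SE 0.445, adjusted p 0.0418) for *Esrrg* (edgeR). None of the 10 genes passed the first rule in this contrast, which 1.15% of all genes did, and *Esrrg* alone passed the weaker rule, which 7.42% did. The contrast was chosen after the values had been seen. *Perm1* differed by -0.09 between these codes in that fit, which takes the code difference as the same in each muscle. The counts went opposite ways, with T6 at 426 and 595 against 1477 for T4 in EDL and at 335 and 344 against 127 in psoas. In soleus they were 533 against 553 and 549. The value of -0.09 thus describes neither EDL nor psoas. Mice of 1 code can share age, sex, date, run or another feature, which cannot be told apart here. The T4 libraries are labelled male and the T6 libraries have no labelled sex.

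The partners and upstream regulators were called in psoas against EDL in 1 of 10, 1 of 22 and 0 of 5 cases for the lists of partners, upstream signalling and further nuclear respiratory factors, beside 4.93% of all genes. Among the 10 partners of the coactivators and receptors, *Pprc1*, the third PGC-1 family member, was higher in psoas than in EDL by 1.15 on the log2 scale (SE 0.259, adjusted p 0.00956 with edgeR). *Pprc1* had normalized counts of 118 to 202 in psoas and 39.8 to 89.4 in EDL. Its call was lost when any 1 psoas library was left out, or any 1 of EDL replicates 3, 4 and 5. It was also lost without soleus replicate 1 or 2, and with only the 2 muscles compared. *Pparg*, the receptor of fat cells, was higher in soleus than in EDL by 1.88 (SE 0.352, adjusted p 0.00964 with edgeR), where adipocyte markers were higher as well: 2 of 6 were called (*Adipoq* and *Cfd*), and their sum was 53980 to 83251 in soleus and 9146 to 27996 in EDL. The part of fat in the *Pparg* level was not tested. *Pparg* was the 1 call among the 10 partners in that comparison, beside 0.978% of all genes. This call was lost with DESeq2's or the authors' size factors, with the label code or replicate block and with only the 2 muscles. It was also lost without any single library other than EDL replicate 4 or soleus replicate 2.

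Among 22 genes upstream of *Ppargc1a* (AMP kinase subunits, sirtuins, p38 kinases, calcium signalling and their transcription factors) 1 was called. *Mapk12*, the p38γ kinase of muscle, was lower in psoas by -1.26 (SE 0.249, adjusted p 0.00539 with edgeR), with 462 to 1030 against 1432 to 2464 in EDL. Its call was lost without EDL replicate 3 or 5, without psoas replicate 1 or 2 and with only the 2 muscles compared. Of 5 further nuclear respiratory factors 0 were called, and *Gabpa*, a subunit of the GABP factor, differed by 0.06 between psoas and EDL. The medians of these 3 lists in psoas against EDL were 0.32, -0.07 and 0.21, beside 0.02 over all genes and -0.18 over the 10 regulators.

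Of 26 known targets of the ERRs and NRF1, 4 were called lower in psoas than in EDL and 0 higher, beside 2.5% of all genes called lower. Under the weaker rule 19 were lower, beside 9.06% of all genes, and the median log2 fold change was -1.03. The 10 regulators went both ways, with 6 negative and 4 positive estimates, and the difference between the lists was not tested. *Cox6a2*, a muscle form of a cytochrome oxidase subunit, was lower by -1.82 (SE 0.243, adjusted p 0.00102) with normalized counts of 885 to 1500 in psoas and 2566 to 6084 in EDL. The others called were the ADP/ATP carrier *Slc25a4* (-1.57), the angiogenic factor *Vegfa* (-1.13) and malate dehydrogenase *Mdh2* (-1.01).

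With the replicate number as a block 10 of the 26 targets were called lower, beside 1267 of all 17069 genes called in either direction. Without psoas replicate 5, the library rich in *Ucp1*, 11 were, beside 755 of all genes. The count fell to 2 without any 1 of EDL replicates 2, 3 and 5 or psoas replicates 1, 2 and 3, beside 317 to 687 of all genes. In the main fit 841 of all genes were called, so the counts of targets moved along with those of all genes in part. The mean log2 CPM of the 26 targets was 8.71 ± 0.338 in EDL (SD, n = 5), 7.64 ± 0.528 in psoas (SD, n = 5) and 8.16 ± 0.090 in soleus (SD, n = 3), and every psoas library was below every EDL library. The muscle fibre markers had a median log2 fold change of -1.30 in the same comparison, and 1 gene, myoglobin (*Mb*), belongs to both lists. The part of fibre content in the lower targets was not tested.

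In soleus against EDL none of the 26 targets passed either rule (DESeq2 called 1), and their median was -0.56. In soleus against psoas the median was 0.46 and *Vegfa* passed the weaker rule (0.96, SE 0.175, adjusted p 0.0233 with edgeR). These 2 comparisons and the first share libraries, so their medians are not independent of each other.

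**Figure D5:**
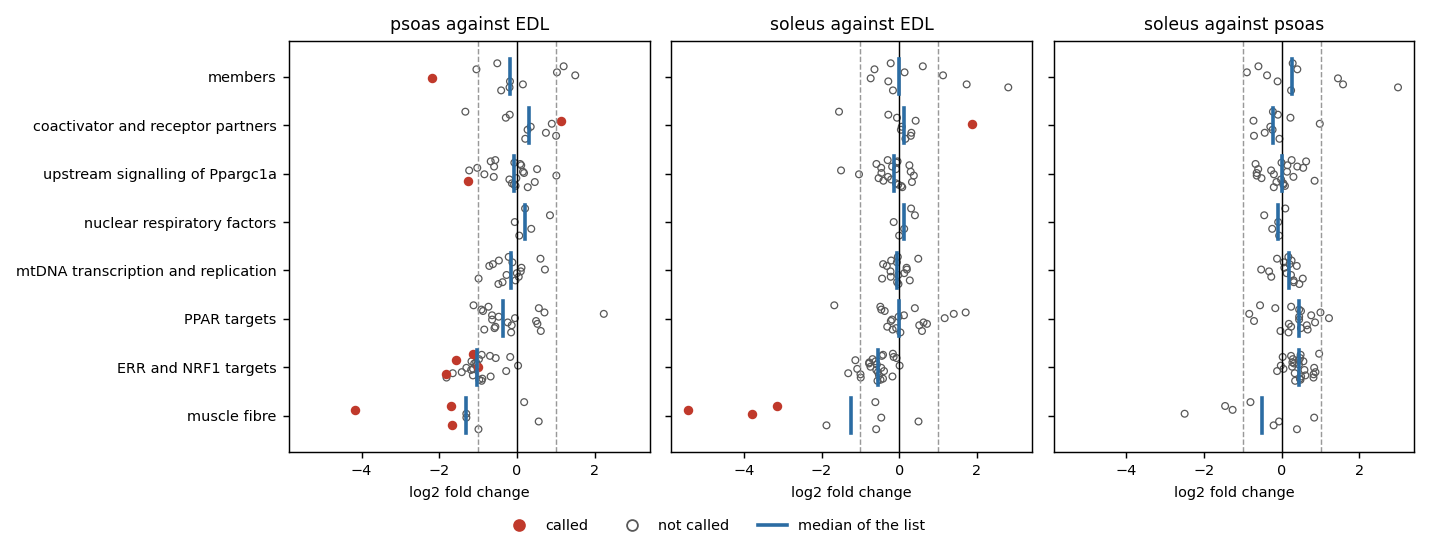
Log2 fold change (horizontal axis) of every gene in 8 lists, for the 3 comparisons, with filled points for genes called and blue bars for the median of each list. In psoas against EDL the 26 ERR and NRF1 targets have a median of -1.03, and the 10 members, 6 below 0 and 4 above, have one of -0.18.

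The mitochondrial DNA machinery and the PPAR targets gave no call in any comparison. Of 16 genes for transcription and replication of mitochondrial DNA, the weaker rule found 2 above and 2 below EDL in psoas, and the 4 most abundant, *Lonp1*, *Tfb2m*, *Mterf3* and *Polg*, had log2 fold changes between -0.47 and 0.05. Of 20 PPAR targets 1 was higher and 1 lower in that comparison by the weaker rule. The most abundant were *Pdk4* (-0.91), *Lpl* (0.71), *Cd36* (-0.24) and *Hadhb* (-0.64), none of which passed. In soleus against EDL *Lpl*, the lipase that feeds fatty acids to muscle and fat, differed by 1.71 (SE 0.396, adjusted p 0.0279 with edgeR), and *Fabp3*, the fatty acid-binding protein of heart and muscle, by 1.17 (SE 0.295, adjusted p 0.0431 with edgeR), the 2 of 20 that passed the weaker rule there.

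Likeness of pattern was measured as Pearson's r of log2 CPM over the 13 libraries, among genes with a mean normalized count of at least 100, as a description. Closest to *Perm1* were *Ppp1r3c* (0.964), a glycogen-targeting subunit of protein phosphatase 1, the potassium channel gene *Kcnj2* (0.958) and *Asb11* (0.944). Closest to *Tfam* were *Pno1* (0.974), *Ecsit* (0.970) and *Mipep* (0.968), the last a peptidase of mitochondrial import, and closest to *Nrf1* were *Pdlim3* (0.931), *Eif2b2* (0.919) and *Tmem87a* (0.918).

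*Ppargc1a* was most like *Zbtb11* (0.893), *Tacc2* (0.891) and *Ptpn3* (0.885), and *Ppargc1b* most like *Nat10* (0.909), *Parp4* (0.902) and *Hectd4* (0.882). The receptor *Esrra* was most like *Timmdc1* (0.919), an assembly factor of complex I, *Rdm1* (0.880) and *Pih1d1* (0.858). *Esrrg* was most like *Rab11fip3* (0.920), *Samd4* (0.906) and *Fam168a* (0.898). For the others the closest gene was *Coro6* for *Ppara* (0.904), *Tshz3* for *Ppard* (0.964) and *Prkd1* for *Esrrb* (0.935). The libraries of the 3 muscles share depth, code and tissue makeup, and no p-value is attached to these values.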

How the data were processed

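RNA of 13 *mdm* muscles (EDL, psoas and soleus) was extracted and sequenced by the authors as stranded total RNA libraries with paired reads. Per the submitters' processing notes and the study's methods, low-quality reads were trimmed with Trimmomatic 0.32, reads were aligned to GRCm38.p4 with TopHat2 2.1.1, and reads on genes were counted with GenomicAlignments. The authors deposited raw counts per gene and a normalized signal, in which each count is scaled by a DESeq2 size factor per library (0.502 to 2.42), called the normalized count here. The quotient of both was constant within each library to 5.3e-15.

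Differential expression was computed from the raw counts with edgeR 4.0.16 in R 4.3.3 (TMM, quasi-likelihood, muscle as the only factor, 13 libraries in 1 fit, 10 residual degrees of freedom, Benjamini-Hochberg adjustment over 17069 genes). The study's own design also held the sequencing run, which the labels do not name. Intervals of 95% are the SE times the t quantile for 10 degrees of freedom. Log2 CPM has a prior count of 2. FPKM is the normalized count divided by exon length (GENCODE release 21) and by the libraries' geometric mean total, and is known up to 1 common factor. Replicates of EDL and psoas with the same number share age and code in 4 of 5 cases. Their deviations from the muscle means correlated by 0.407, 0.370, 0.316, 0.289 and 0.371, and the numbers were taken as pairs. Between libraries of unlike number the highest value was 0.237 (EDL replicate 5 with psoas replicate 4). The first pair, at 0.407, comes from mice of 38 and 29 days and so not from the same animal. These values therefore do not show that the pairs are animals. The study's methods call the soleus muscles biological replicates and those of EDL and psoas replicates, and the labels name no animal. Muscles of different groups can come from the same mouse, and the p-values measure the spread between these samples. No pair of libraries was a duplicate.

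DESeq2 1.42.0, other scalings, filters, blocks and subsets were tried as alternatives. On simulated counts (psoas against EDL, 17069 genes) edgeR and DESeq2 recovered 100% of 4-fold and 8-fold changes with 0 false calls. Recovery at the spread of *Ppargc1a* (93.9% of its mean within EDL) or *Perm1* (63.0% within psoas) was not tested separately. The same holds for the low counts of *Ppard* and *Esrrb*. Recovery for the 10 regulators themselves was thus not tested, and the 100% and 0 are not to be read as theirs. Named are all 10 genes, from each list the genes called or else up to 4 of the most abundant, and 3 similar genes per member. Of the lists, 2 genes are not reported here and were left out of every list's counts, sums and medians. Members and lists were chosen with earlier results of these data known. Python 3.11.15 (pandas 2.3.3, scipy 1.17.1) wrote the tables, and matplotlib 3.10.9 drew the figures.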

Additional observations from a re-analysis of the deposited data

Results flagged for a closer look

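Within groups of 5 libraries, the gap of the highest or lowest library to its neighbour was compared with the group's range by Dixon's ratio, for the 10 regulators and 16 other genes in EDL and psoas. Of 52 such groups 5 exceeded the limit of 0.71, which flags about 1 in 20 independent groups with a normal spread. These groups share libraries, and the genes were chosen with earlier results of these data known. The 5 of 52 are therefore not to be read against that rate. *Ppargc1b* was low in psoas replicate 2, at a normalized count of 26.7, and *Ppara* was high in psoas replicate 5, at 152.5. *Esrrg* was high in EDL replicate 2, at 610.6. *Ucp1* was high in psoas replicate 5, at 4911, and *Adipoq* was high in EDL replicate 4, at 3154. The *Ppara* and *Ucp1* values come from the same library.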

How the results depend on the processing

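The direction of *Perm1* in psoas against EDL was the same in all 21 alternatives run, but its call was lost in 7 of them. Relative to 1 gene called, 3 of the 10 passed at an adjusted p under 0.05 with no fold limit, and 0 were called with a block for the label code, with the replicate block, with only the 2 muscles compared (where the adjusted p of *Perm1* was 0.01001, edgeR) and with only libraries of 38-day-old mice, a fit with fewer libraries in which the lone soleus library is assumed to vary like the other muscles. Leaving out 1 library gave 0 to 1. Of 99 genes in the 6 pathway lists, 6 were called in psoas against EDL, and 10 with a block for the label code, 21 with DESeq2, 16 with the replicate block, 2 with only the 2 muscles and 0 with 38-day-old mice. Of the 26 targets, 4 were called, and 6, 15, 10, 2 and 0 under the same alternatives. Without single libraries these counts were 2 to 15 and 2 to 11, both highest without psoas replicate 5, and alternatives for lists were added after the data had been seen. Calls among all genes moved too, from 841 in the main fit to 1106 with the code block, 1586 with DESeq2 and 1267 with the replicate block. They were 557 with only the 2 muscles and 317 to 802 without single libraries.

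In soleus against EDL 1 pathway gene was called, and 6 with DESeq2 (1 of them a target), but 0 with either DESeq2's or the authors' size factors, with the label code or replicate block, with only the 2 muscles and with 38-day-old mice. Single libraries left out gave 0 to 1 pathway genes and 0 to 1 of the 10 regulators. Among all genes 167 were called in the main fit, 633 with DESeq2 and 19 to 182 without single libraries. The replicate numbers of soleus match neither age nor code, so there the block is only a number.

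Estimates that were not called changed sign as follows. With 38-day-old mice *Esrrg* was -0.014 in psoas against EDL, *Ppargc1b* -0.19, *Ppard* -0.46, *Esrra* 0.38 and *Esrrg* -0.21 in soleus against EDL, and *Ppargc1a* -1.23 and *Esrrg* -0.20 in soleus against psoas. With the label code as a block *Ppard* was -0.16 in soleus against EDL and *Ppargc1a* -0.53 in soleus against psoas, where the replicate block gave -0.93. Without single libraries, psoas against EDL ran from -0.64 to 0.30 for *Esrrb* and from -0.048 to 1.001 for *Esrrg*. Soleus against EDL ran from -2.22 to 0.10 for *Ppargc1a*, from -0.43 to 0.37 for *Ppard* and from -0.49 to 0.0069 for *Esrra*, and soleus against psoas from -1.19 to 0.86 for *Ppargc1a*, from -0.78 to 0.13 for *Ppara* and from -0.090 to 0.40 for *Esrra*. The cause of these changes was not tested. Depth limits *Esrrb*, with at most 9 counts in any EDL or psoas library.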
